A study of Mus musculus with 4 samples.

Results

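The 7 genes described here encode the keratins of simple epithelia (Krt7, Krt8, Krt18, Krt19, Krt20 and Krt23) and vimentin (Vim). They were chosen by symbol, and each matched 1 of the 32285 genes of the count tables. Their unique molecular identifiers (UMIs, each standing for 1 captured transcript) were read in Visium kidney sections of 2 Uox_KO mice and 2 Control mice. All were male, on the C57BL/6J background. The Uox_KO mice were bought as a line made by deletion of Uox exons 2 to 4, and their titles call them hyperuricemia mice. Uox encodes urate oxidase, the enzyme that breaks down uric acid. The Control mice were wild type from the same supplier. The age of the mice is not given in the sources used here. Each genotype had 1 section from each of 2 mice, so n = 2 throughout. The p-values of genotype comparisons measure the spread between these few sections. Where a test set the section or the mouse as a block, its p-values measure only the spread that remains once that block is taken out. A Visium spot is a small region of tissue that can hold several cells of different types. The question was how the 7 genes differed between genotypes, once spots of the urothelium that lines the renal pelvis were set apart from spots of the tubules.

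Keratins and vimentin build intermediate filaments, the ropelike part of the cytoskeleton that resists stretch. A keratin filament forms only when a type II keratin (Krt7 or Krt8) pairs with a type I keratin (Krt18, Krt19, Krt20 or Krt23), whereas vimentin, a type III protein, assembles with itself. In the healthy kidney Krt8 and Krt18 are the basic pair of tubule epithelium, Krt7 and Krt19 belong to the distal segments, the collecting ducts and the urothelium, and Krt20 marks the umbrella cells at the surface of the urothelium. Vimentin is a protein of fibroblasts, vessels, leukocytes and podocytes, and tubule cells are known to make it, together with more keratin, after injury.

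The genes lie in 3 places in the genome (GRCm38.p6). Krt7 (chr15:101412403-101427806), Krt8 (chr15:101996711-102004342) and Krt18 (chr15:102028216-102032026) are in the type II keratin cluster. Krt8 and Krt18 are neighbours that are read away from each other, with 23873 bases between them. Krt20 (chr11:99428385-99438153), Krt23 (chr11:99477973-99493120) and Krt19 (chr11:100140810-100145926) are in the type I cluster. Krt20 and Krt23 lie 39819 bases apart on the same strand. Vim stands alone at chr2:13574311-13582826. The promoters of these 2 neighbouring pairs are shown because Krt8 and Krt18 were both higher in Uox_KO sections, by unequal amounts, whereas Krt20 was higher and Krt23 was not. Each line gives the 250 bases before the gene's start from RefSeq (GRCm38.p6), 5′ to 3′ on the gene's own strand. They are chr15:102004343-102004592 on the minus strand for Krt8 and chr15:102027966-102028215 on the plus strand for Krt18. For Krt20 they are chr11:99438154-99438403 and for Krt23 chr11:99493121-99493370, both on the minus strand. Capitals mark the TATA box (TATAAA) and GGAATG, the motif of TEAD factors, on either strand.
Krt8: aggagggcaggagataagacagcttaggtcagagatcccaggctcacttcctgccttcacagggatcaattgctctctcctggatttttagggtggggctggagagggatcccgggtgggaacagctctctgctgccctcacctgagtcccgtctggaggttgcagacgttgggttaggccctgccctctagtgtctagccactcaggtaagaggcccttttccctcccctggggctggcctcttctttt
Krt18: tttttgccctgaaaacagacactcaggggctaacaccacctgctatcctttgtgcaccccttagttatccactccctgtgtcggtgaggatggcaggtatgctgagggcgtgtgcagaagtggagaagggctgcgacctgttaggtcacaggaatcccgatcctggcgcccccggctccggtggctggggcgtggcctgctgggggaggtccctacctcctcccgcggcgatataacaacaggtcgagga
Krt20: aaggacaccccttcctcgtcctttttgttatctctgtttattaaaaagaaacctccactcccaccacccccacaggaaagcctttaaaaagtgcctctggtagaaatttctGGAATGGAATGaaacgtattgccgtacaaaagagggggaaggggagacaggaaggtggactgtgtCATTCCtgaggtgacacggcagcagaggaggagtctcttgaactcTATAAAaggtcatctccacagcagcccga
Krt23: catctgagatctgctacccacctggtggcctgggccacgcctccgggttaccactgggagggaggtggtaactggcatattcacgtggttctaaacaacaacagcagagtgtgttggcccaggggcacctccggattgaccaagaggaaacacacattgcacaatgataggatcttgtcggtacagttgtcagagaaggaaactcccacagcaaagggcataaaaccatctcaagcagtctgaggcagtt
Promoter sequences were at hand for 6 of the 7 genes. TATAAA was found 29 bases before the start of Krt20 and 32 bases before that of Vim, and in none of the other 4. GGAATG occurred 3 times in the Krt20 promoter, where the first and the second match share a base, and in no other of the 6. That motif was searched after the Krt20 sequence had been read, on both strands like the others. Of 32851 promoters of this length in the RefSeq table, 12.4% held TATAAA and 12.6% held GGAATG, and 30 (0.0913%) held GGAATG at least 3 times. The AP-1 motif TGANTCA (6.75% of promoters) and the STAT motif TTCNNNGAA (7.02%) were not found in these windows of the 6 genes.

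The sections held 2650 and 2590 spots with 53897511 and 57230517 UMIs in Uox_KO, against 2528 and 3362 spots with 93524222 and 107962997 UMIs in Control. The median spot had 16674 and 19599.5 UMIs in Uox_KO, against 37386 and 32038.5 in Control. Barcodes are positions on the slide, and any pair of sections shared 1861 to 2539 of them. Uox itself had 0 UMIs in all 4 sections, so it could not check the genotype labels. The Uox_KO sections held tissue that was nearly missing from the Control sections. The 7 urothelial markers summed to 102 and 64.7 CPM (UMI counts relative to the library's total, scaled by TMM) in Uox_KO, against 0.976 and 0.981 CPM in Control. Fat markers summed to 934 and 1788 CPM, against 2.29 and 17.6 CPM. Slc14a2, the urea transporter of the inner medulla, was seen in 281 and 127 spots of Uox_KO, against 1 and 1 of Control. These counts leave out spots with the urothelial genes Upk1b or Upk3a. All 6 stroma markers and all 6 macrophage markers were higher in Uox_KO, with stroma sums of 1164 and 912 CPM, against 92.3 and 77.3 CPM. The 8 proximal tubule markers summed to 8109 and 8493 CPM in Uox_KO, against 19869 and 18995 CPM in Control. The part of these differences in the results below was not tested, unless a value is given. In a spot, a gene can be low because fewer cells of a type were captured or because each held less RNA, and these cannot be told apart.

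In whole sections, 6 of the 7 genes were higher in Uox_KO, 0 were lower, and Krt23 did not pass the test. The same test called 34.6% of all 16369 genes higher and 32.5% lower (edgeR's quasi-likelihood test, Benjamini-Hochberg adjusted p under 0.05). The median log2 fold change was 2.40 over the 7 genes and 0.00 over all genes tested. So many genes were called in both directions that the number of calls says little, and the sizes differed widely among the 7. The type II keratins had the smallest log2 differences of the 6. Krt8 stood at 205 and 195 CPM in Uox_KO, against 108 and 108 CPM in Control, a log2 fold change of 0.89 (SE 0.0607, adjusted p = 3.04e-05). Krt7, a keratin of ducts and urothelium, stood at 97.7 and 115 CPM, against 53.3 and 67.7 CPM, a log2 fold change of 0.81 (SE 0.126, adjusted p = 0.00128). Both Uox_KO sections lay above both Control sections for each gene.

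The type I keratins differed more, apart from Krt23. Krt18, the partner of Krt8, had 59.1 and 54.6 CPM in Uox_KO, against 8.26 and 9.57 CPM in Control, a log2 fold change of 2.67 (SE 0.0871, adjusted p = 2.43e-06). Krt19, the smallest keratin, had 30.8 and 25.7 CPM, against 0.259 and 0.344 CPM, a log2 fold change of 6.53 (SE 0.162, adjusted p = 1.27e-06). Krt20 had 11.5 and 10.8 CPM, against 0.0471 and 0.0202 CPM, a log2 fold change of 8.35 (SE 0.211, adjusted p = 1.28e-06). Krt19 and Krt20 were close to absent from the Control sections. Krt19 rested there on 22 and 34 UMIs, with 1850 and 1581 UMIs in Uox_KO, and Krt20 on 4 and 2 UMIs, with 690 and 668 UMIs in Uox_KO. Krt23, a less studied type I keratin, had 0.982 and 0.909 CPM in Uox_KO, against 0.847 and 0.951 CPM in Control. Its groups overlapped, and the 95% interval of its log2 fold change ran from -0.40 to 0.54 (adjusted p = 0.767). Vim had 115 and 99.9 CPM, against 19.0 and 21.8 CPM, a log2 fold change of 2.40 (SE 0.0991, adjusted p = 5.21e-06).

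**Figure D1:**
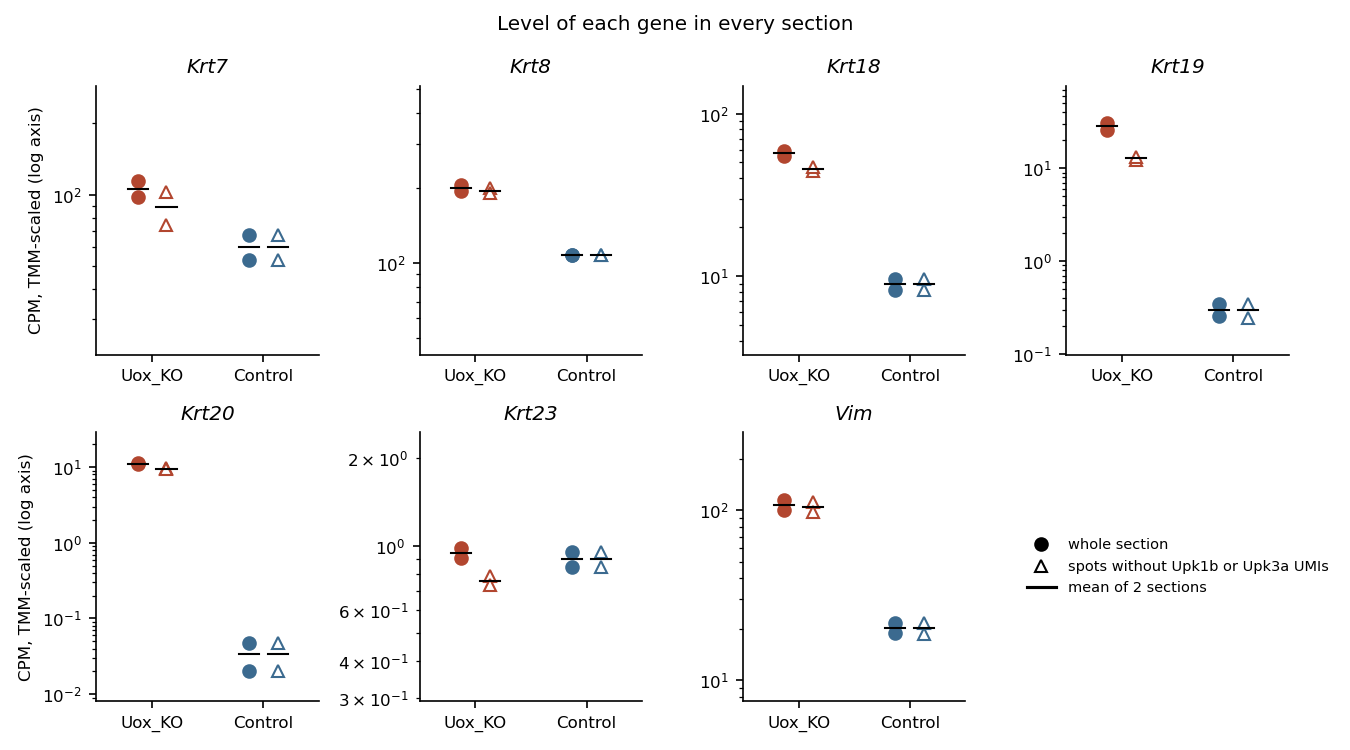
Level of each gene in CPM (TMM-scaled, log axis) in the 2 Uox_KO sections (red, left) and the 2 Control sections (blue, right), over all spots (filled circles) and over spots without Upk1b and Upk3a UMIs (open triangles), with lines at the means. The red points lie above the blue ones for each gene except Krt23, and the Krt19 triangles of Uox_KO (12.3 and 13.3 CPM) lie well below its circles (30.8 and 25.7 CPM).

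Spots of the urothelium were then set apart as those with a UMI of Upk1b or Upk3a, which encode uroplakins of the plaque on the surface of the urothelium. They numbered 370 and 164 in the Uox_KO sections, against 4 and 10 in the Control sections. The Control spots were too few to test. In Uox_KO these spots held 13.2% and 6.32% of all UMIs but 65.4% and 51.7% of the Krt19 UMIs. Their share of the Krt18 UMIs was 34.9% and 20.2%, of Krt7 34.1% and 16.5%, of Krt23 30.5% and 25%, and of Krt20 27.5% and 19.3%. Krt8 with 15.9% and 9.0% and Vim with 15.8% and 8.51% had shares closer to those of all UMIs. Most Krt19 UMIs of the Uox_KO sections thus came from urothelial spots, whereas the larger part of every other member's UMIs came from outside them.

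Within the Uox_KO sections, urothelial spots were tested against all other spots of the same section. All 7 genes were higher in urothelial spots, beside 7.65% of 15185 genes called higher and 5.05% called lower (edgeR's quasi-likelihood test with the section as a block, Benjamini-Hochberg adjustment). Krt19 was at 169 and 223 CPM in urothelial spots, against 13.6 and 14.7 CPM in the others, a log2 fold change of 3.78 (SE 0.0980, adjusted p = 1.59e-10). Krt18 was at 173 and 185 CPM, against 49.0 and 51.6 CPM (log2 fold change 1.83, adjusted p = 1.67e-08). Krt7 was at 280 and 317 CPM, against 81.9 and 113 CPM (1.63, adjusted p = 2.24e-07). These 3 genes and Krt20, at 26.5 and 35.2 CPM against 10.6 and 10.4 CPM (1.53, adjusted p = 1.03e-05), were clearly separate between the kinds of spot in both sections. Krt23 was at 2.51 and 3.82 CPM, against 0.869 and 0.807 CPM (1.85, adjusted p = 0.00894), but on only 18 and 14 UMIs in urothelial spots. Krt8 was at 274 and 295 CPM, against 220 and 210 CPM (0.40, adjusted p = 0.0105), and Vim at 152 and 143 CPM, against 124 and 108 CPM (0.35, adjusted p = 0.0160). With every spot thinned to 5000 UMIs, all 7 genes were again higher, beside 5.75% of genes higher and 5.86% lower. Spots were also chosen by any gene of a wider urothelial list (Upk1a, Upk1b, Upk2, Upk3a, Krt5 and Psca). With that choice 4 of the 7 were higher, beside 2.86% of 15139 genes higher and 0.403% lower. Krt8 (0.24, adjusted p = 0.106), Krt23 (0.99, 0.18) and Vim (0.23, 0.146) then did not pass. Without the section as a block, Krt8 and Vim did not pass either (adjusted p = 0.0531 and 0.0926).

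The number of uroplakin UMIs in a spot divided the genes further. In order of 0, 1, 2 to 4, and 5 or more UMIs of Upk1b and Upk3a, Uox_KO replicate 1 had 2280, 221, 79 and 70 spots and replicate 2 had 2426, 113, 23 and 28. Krt19 ran through 13.7, 22.1, 137 and 696 CPM, here without TMM scaling, in replicate 1, and 14.3, 16.5, 137 and 1269 in replicate 2. Krt7 ran through 82.7, 91.1, 209 and 987 in replicate 1, and 110, 84.0, 135 and 1562 in replicate 2. Both keratins were several times higher in spots with 5 or more uroplakin UMIs than in spots with 2 to 4, in both sections. Krt20 ran through 10.7, 12.0, 20.1 and 81.9, and 10.1, 12.7, 13.2 and 158. Vim had another order, with 125, 128, 242 and 153 in replicate 1 and 105, 129, 280 and 129 in replicate 2. Its highest level was in the spots with 2 to 4 uroplakin UMIs, in both sections.

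**Figure D2:**
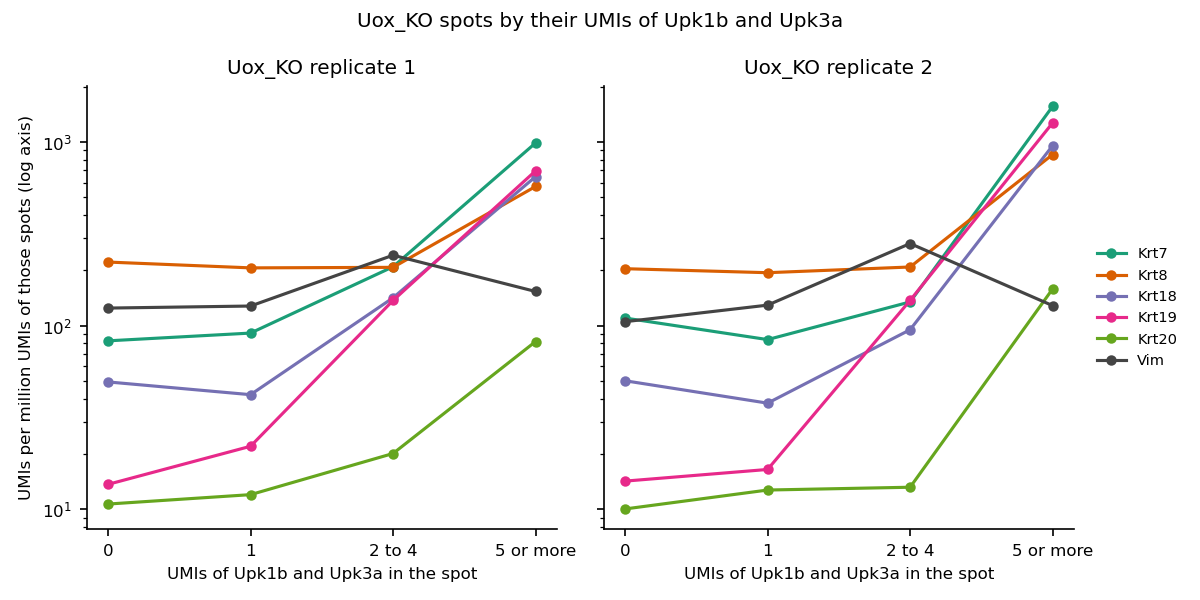
Unscaled CPM (log axis) of 6 genes in Uox_KO spots grouped by their UMIs of Upk1b and Upk3a, for replicate 1 (left panel) and replicate 2 (right panel). The keratin lines end highest at 5 or more UMIs, with Krt19 at 696 and 1269 CPM, while the Vim line peaks at 2 to 4 UMIs with 242 and 280 CPM.

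With the urothelial spots removed from all sections, the same 6 genes were higher in Uox_KO and Krt23 again did not pass the test. Of the 16251 genes in this test, the calls were 33.4% higher and 31.9% lower. The median log2 fold change was 2.35 over the 7 genes and -0.00 over all genes tested. Krt8 had 199 and 190 CPM in Uox_KO, against 108 and 107 CPM in Control, a log2 fold change of 0.86 (SE 0.0619, adjusted p = 5.10e-05 in edgeR's test). Krt18 had 44.4 and 46.7 CPM, against 8.22 and 9.56 CPM (2.35, SE 0.0865, adjusted p = 4.95e-06). Krt19 had 12.3 and 13.3 CPM, against 0.247 and 0.344 CPM (5.41, SE 0.153, adjusted p = 2.17e-06). Krt19 thus lost more than any other member when the urothelial spots were left out, yet both Uox_KO sections remained far above both Control sections. Krt20 had 9.61 and 9.37 CPM, against 0.0470 and 0.0202 CPM (8.11, SE 0.219, adjusted p = 2.10e-06), and Vim had 112 and 98.0 CPM, against 18.8 and 21.7 CPM (2.37, SE 0.0990, adjusted p = 7.18e-06). Krt23 had 0.788 and 0.730 CPM, against 0.846 and 0.950 CPM, and the interval of its log2 fold change ran from -0.74 to 0.25.

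Krt7 was the least certain of the 6. It had 74.3 and 102 CPM in Uox_KO, against 53.1 and 67.4 CPM in Control, a log2 fold change of 0.55 (SE 0.169, adjusted p = 0.0254 in edgeR's test). DESeq2 gave it an adjusted p of 0.0762, and without Control replicate 1 edgeR gave a log2 fold change of 0.38 (adjusted p = 0.191). Over the fits that left out 1 section in turn, the log2 fold change of Krt7 lay between 0.31 and 0.77. Removal of the urothelial spots was not complete for every marker, since 4 of 5 tested urothelial genes were still higher in Uox_KO and the list summed to 11.8 and 6.43 CPM, against 0.928 and 0.880 CPM. When spots with any gene of the wider urothelial list, of fat, of mesothelium or of Slc14a2 (the urea transporter of the inner medulla) were also left out, the same 6 genes were higher. That set kept 43.9% and 42.2% of the Uox_KO spots, against 96.0% and 95.9% of the Control spots, so the genotypes lost unequal parts of their sections. The share of all genes called higher was 32.2% in that set and 33.1% without Slc14a2 spots alone, where the same 6 were higher too. In the stricter set Krt19 had 10.4 and 12.7 CPM in Uox_KO, against 0.244 and 0.347 CPM in Control.

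Depth differed between the genotypes, so the share of spots with a UMI was also taken with each spot thinned to 5000 UMIs. That left 2024 and 2276 spots in Uox_KO, against 2518 and 3348 in Control. Krt8 was seen in 58.8% and 56.9% of the thinned Uox_KO spots, against 37.3% and 38.1% of the Control spots. Without thinning the shares were 82.9% and 84.3%, against 94.6% and 92.5%. Krt18 was seen in 20.6% and 21.2% of thinned spots, against 4.01% and 5.02%, and Vim in 41.1% and 35.3%, against 9.13% and 10.0%. Krt19 was seen in 7.26% and 8.83% of thinned spots, against 0.0397% and 0.209%. Krt20 was seen in 3.80% and 3.91%, against 0.0397% and 0.0299%. For each of these 5 genes the thinned shares of Uox_KO lay above those of Control in both sections.

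Other cell types in the spots could be followed through their markers. Spots without urothelial genes were divided in each section into 4 groups of nearly equal size by the UMI share of stroma, macrophage, T cell, B cell and smooth muscle markers. From the group with the least to the group with the most of these markers, Krt8 ran through 130, 228, 305 and 317 unscaled CPM in Uox_KO replicate 1, and 127, 174, 250 and 368 in replicate 2. In Control it ran through 93.8, 100.3, 100.5 and 98.7, and 97.6, 98.6, 98.0 and 100.1. Krt8 was level across the groups of spots in both Control sections and climbed across them in both Uox_KO sections. Vim ran through 36.7, 83.1, 166 and 356, and 34.9, 63.4, 117 and 318 in Uox_KO, against 6.72, 8.20, 13.0 and 49.0, and 7.13, 7.79, 14.7 and 59.9 in Control. In the group with the least of these markers, the same 6 genes were higher in Uox_KO, beside 24.6% of 13898 genes tested. Stroma markers still summed there to 286 and 195 CPM in Uox_KO, against 28.0 and 19.3 CPM in Control. Krt8 then had 129 and 128 CPM in Uox_KO, against 94.1 and 98.2 CPM in Control (log2 fold change 0.42, adjusted p = 7.20e-04 by edgeR). Vim had 36.2 and 34.0 CPM, against 6.74 and 7.18 CPM (2.33, adjusted p = 5.55e-07), and Krt18 had 18.6 and 25 CPM, against 4.74 and 5.57 CPM (log2 fold change 2.08). The log2 difference of Krt8 was thus 0.42 in these spots and 0.86 over all spots without urothelial genes, and that of Vim 2.33 and 2.37. Whether these differ was not tested.

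There were 5 kinds of spot compared next, chosen in each section as the spots in the top 10% for the summed UMI share of a list of segment markers and in the top 10% of no other list. They held from 82 to 231 spots in the Uox_KO sections, against 141 to 328 in the Control sections. The rule itself made their own markers high, so those sums describe the spots and do not test the classes. Proximal tubule markers summed to 17090 and 16638 CPM in the proximal spots of Uox_KO, against 21516 and 21791 CPM in those of Control. Collecting duct markers in collecting duct spots summed to 1582 and 2784 CPM, against 2710 and 3225 CPM. Other tissue came along: stroma markers summed to 282 and 260 CPM in proximal spots of Uox_KO, against 51.2 and 37.2 CPM, and to 2279 and 2394 CPM in glomerular spots, against 210 and 160 CPM. Their part in the values that follow was not tested. TMM scaling was done within each class, so CPM values of different classes do not share a scale. Small differences between classes are therefore not read as an order.

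In proximal tubule spots, 5 of 6 tested members were higher in Uox_KO, beside 23.1% of all genes. In thick ascending limb spots 6 of 6 were higher, beside 24.6%, where Krt20 had no Control UMI and so passed the filter on low counts through Uox_KO, and Krt23 was filtered out. In spots of the distal convoluted and connecting tubule 5 of 5 were higher, beside 13.7%, in collecting duct spots 6 of 7, beside 18.8%, and in glomerular spots 6 of 6, beside 28.5%. No member was called lower in any of the 5, where 20%, 23%, 13.5%, 16.9% and 26.9% of genes were lower in that order. The same members were called when the classes were chosen among spots without Slc14a2, beside 14.2% to 27.5% of genes higher. Members that were not tested had too few UMIs. Krt19 and Krt20 had few or no UMIs in the Control classes and, where tested, passed the filter through Uox_KO. These counts therefore describe the members that passed the filter and not all 7.

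Krt8 varied less across the classes in Control than in Uox_KO. It had 85.7 and 93.2 CPM in proximal spots, 115 and 120 CPM in thick limb spots, 99.6 and 99.8 CPM in distal spots, 121 and 121 CPM in collecting duct spots and 123 and 118 CPM in glomerular spots of Control. In 1 fit over the 5 classes with the mouse as a block (13860 genes), no other class passed the test against the proximal one for Krt8 in Control, with log2 differences from -0.07 to 0.16, 95% intervals between -0.23 and 0.31, and adjusted p from 0.105 to 0.762 in edgeR's test. The thick limb interval alone, from 0.016 to 0.31, was wholly positive (unadjusted p = 0.0301, edgeR). In Uox_KO the values were spread more widely. Krt8 had 107 and 109 CPM in proximal spots, 156 and 182 CPM in glomerular spots, 203 and 208 CPM in thick limb spots, 211 and 219 CPM in distal spots and 387 and 341 CPM in collecting duct spots. Thick limb and distal values were too close to order, given the separate scales. The genotype difference of Krt8 was 0.26 (log2, adjusted p = 0.00395) in proximal spots and 1.59 (adjusted p = 3.80e-10) in collecting duct spots.

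Krt7 in Control was ordered by segment. It had 15.0 and 18.9 CPM in proximal spots, 81.2 and 71.6 CPM in glomerular, 72.5 and 85.2 CPM in thick limb, 78.5 and 94.5 CPM in distal and 152 and 196 CPM in collecting duct spots of Control. The 3 in the middle overlapped. In Uox_KO it had 16.2 and 25 CPM in proximal spots, where the genotypes overlapped and the test was not passed (0.29, adjusted p = 0.148, edgeR). It did pass there at the top 5% of spots (0.55, adjusted p = 0.0188), without Uox_KO replicate 1 (0.55, 0.00115) and without Control replicate 2 (0.47, 0.0103). It had 139 and 146 CPM in thick limb spots (log2 fold change 0.85), 179 and 261 CPM in distal spots (1.34) and 245 and 354 CPM in collecting duct spots (0.79) of Uox_KO. With the top 20% of spots the collecting duct value was 0.20 (adjusted p = 0.412). In glomerular spots it had 73.6 and 119 CPM, and it passed the test (0.38, adjusted p = 0.0170) although the lower Uox_KO section lay below the higher Control section. Without Uox_KO replicate 2 that value was -0.03, without Control replicate 2 it was 0.27 (adjusted p = 0.229), at the top 5% of spots it was 0.24 (0.250), and DESeq2 gave an adjusted p of 0.270.

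Krt18 was higher in Uox_KO in all 5 classes without overlap. In collecting duct spots it had 194 and 182 CPM in Uox_KO, against 28.5 and 30.7 CPM in Control (log2 fold change 2.66, adjusted p = 1.55e-13, edgeR). In thick limb spots it had 47.6 and 43.2 CPM, against 6.27 and 8.88 CPM (2.56), and in glomerular spots 56.4 and 68.6 CPM, against 14.9 and 11.2 CPM (2.30). In distal spots it had 56.4 and 76.4 CPM, against 15.6 and 14.7 CPM (2.14). Proximal spots had the lowest levels, 8.38 and 9.53 CPM in Uox_KO, against 2.51 and 2.75 CPM in Control (1.76, adjusted p = 1.92e-06). In Control, Krt7, Krt18 and Vim were each higher than in proximal spots in all 4 other classes, beside 12.9%, 20.7%, 18.5% and 20.6% of genes for the thick limb, distal, collecting duct and glomerular spots.

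Krt19 and Krt20 had almost no UMIs in any Control class, so their ratios rest on very few counts. Collecting duct spots had the highest Krt19, 42.4 and 41.5 CPM in Uox_KO, against 0.903 and 1.13 CPM in Control. Glomerular spots had 24.5 and 23.2 CPM, against 0.298 and 0.229 CPM, thick limb spots 20.4 and 24.0 CPM, against 0.482 and 0.546 CPM, distal spots 8.83 and 8.27 CPM, against 0 and 0.513 CPM, and proximal spots 4.57 and 5.96 CPM, against 0.0965 and 0 CPM. The proximal values were 75 UMIs in Uox_KO, against 1 in Control, a ratio of 121 with a 95% counting interval from 21.0 to 4829. Krt20 had 77 UMIs in the thick limb spots of Uox_KO, against 0 in Control, which is at least 38.5-fold higher against a floor of 3 counts over the Control sections. In proximal spots it had 40 UMIs, against 1, a ratio of 64.4 (10.9 to 2605). In distal spots it had 13 UMIs, against 0, at least 15-fold higher, and was too low to be tested. Krt20 was thus seen outside the urothelium in every class of Uox_KO spots. Krt23 was tested in collecting duct spots alone, with 2.16 and 7.90 CPM in Uox_KO, against 3.61 and 3.96 CPM in Control, and overlapped (adjusted p = 0.406 in edgeR's test). At the top 5% of spots Krt23 did pass there (log2 fold change 1.46, adjusted p = 0.0212), and without Uox_KO replicate 2 its value was -0.79. In thick limb spots it had 0.243 and 0.424 CPM, against 1.93 and 1.91 CPM, with no overlap, but its counts were under the filter. It was called lower there when no filter was set.

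Vim was highest in glomerular spots of both genotypes, 273 and 314 CPM in Uox_KO, against 94.3 and 92.2 CPM in Control (log2 fold change 1.66, adjusted p = 5.74e-18, edgeR). These spots hold podocytes and mesangium, which are known to make vimentin. In thick limb spots it had 128 and 86.5 CPM, against 14.2 and 14.2 CPM (2.91), in collecting duct spots 124 and 73.1 CPM, against 21.2 and 27.7 CPM (1.96), and in distal spots 71.4 and 42.0 CPM, against 20.9 and 23.6 CPM (1.33). Proximal spots had the lowest levels, 22.7 and 21.2 CPM, against 7.43 and 7.69 CPM (1.53). In each class the stroma and macrophage sums were higher in Uox_KO too, for example 1339 and 913 CPM of stroma markers in thick limb spots, against 93.3 and 76.5 CPM.

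**Figure D3:**
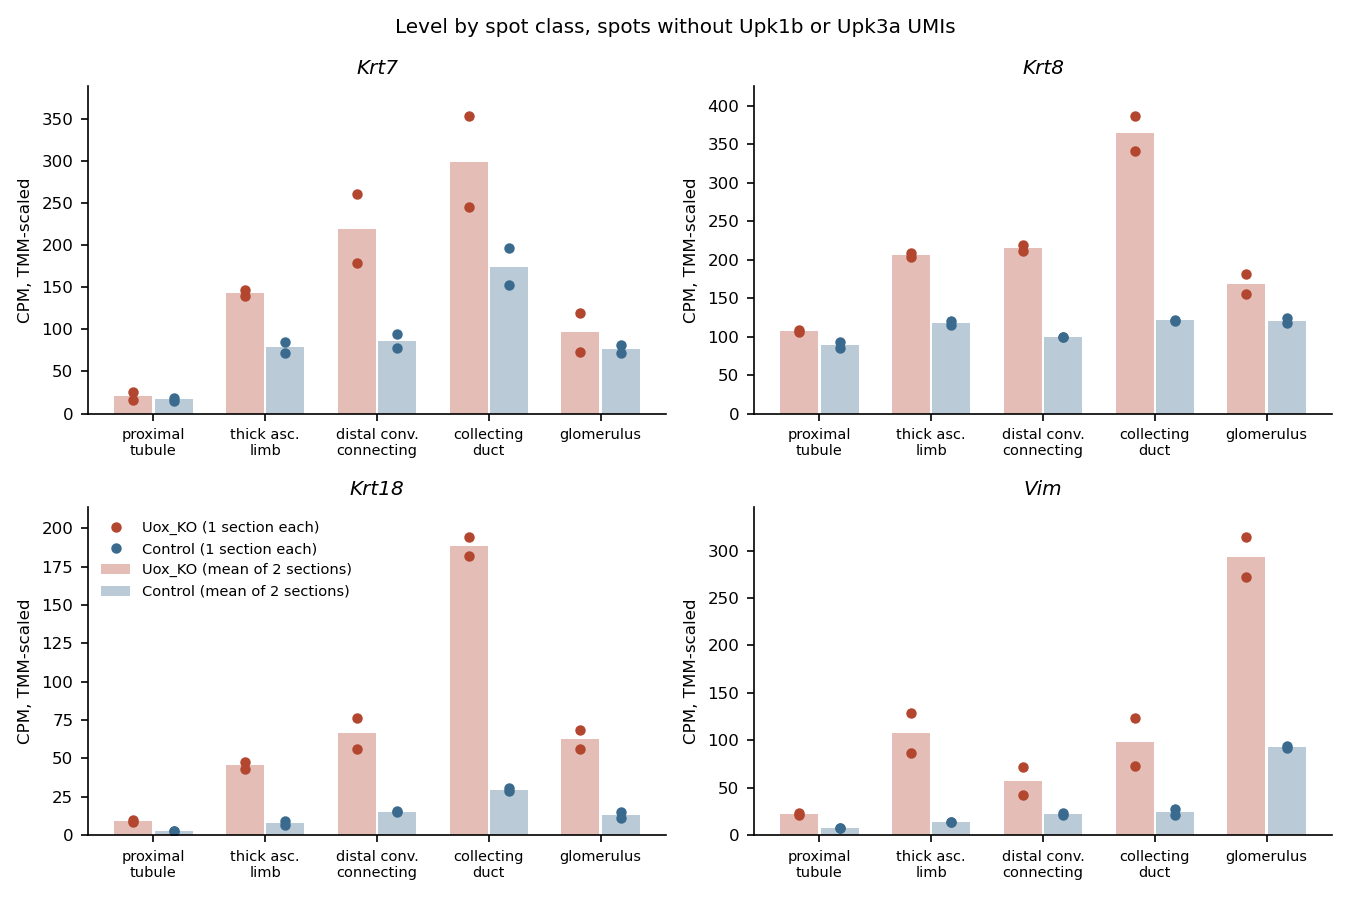
Level in CPM (TMM-scaled) of Krt7, Krt8, Krt18 and Vim in 5 classes of spots without urothelial genes, with Uox_KO (red) left of Control (blue), bars at the mean of 2 sections and a point for each section. Krt8 lies between 85.7 and 123 CPM across the Control classes and reaches 387 and 341 CPM in collecting duct spots of Uox_KO, while Vim is highest in glomerular spots. Scaling was done within each class.

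Whether the genotype difference itself depended on the class was tested against the proximal tubule, for the 4 members with at least 10 UMIs in every library. Of 16 such terms, 7 passed, and those 7 were positive. Terms for the thick limb were higher for 3 of 4 members (8.51% of genes higher, 14.7% lower) and for the distal spots for 2 of 4 (2.35% higher, 9.4% lower). They were higher for the collecting duct for 2 of 4 (3.15% higher, 10.1% lower) and for the glomerulus for 0 of 4 (9.65% higher, 20.5% lower). Krt8 had a genotype difference larger by 0.54 in the thick limb, 0.79 in distal spots and 1.27 in the collecting duct (log2, adjusted p = 1.11e-04, 4.44e-06 and 2.39e-10, edgeR). Its thick limb term did not pass without Control replicate 1 (0.53, adjusted p = 0.0576) or Control replicate 2 (0.51, 0.0789), and its collecting duct term was 0.79 at the top 20% of spots. Krt7 exceeded its proximal difference by 0.57 in the thick limb and 1.0 in distal spots (adjusted p = 0.0187 and 2.05e-04), and Vim by 1.37 in the thick limb (adjusted p = 1.55e-04). The thick limb term of Krt7 did not pass at the top 5% of spots (0.24, adjusted p = 0.540) or without Uox_KO replicate 1 (0.34, 0.171), Control replicate 1 (0.61, 0.10) or Control replicate 2 (0.55, 0.172), and that of Vim did not pass at the top 5% (0.63, 0.195). Krt18 had a term of 0.85 in the collecting duct (adjusted p = 0.0359). It did not pass at the top 5% (0.43, 0.683) or top 20% (0.23, 0.596), nor without Uox_KO replicate 1 (0.75, 0.0925), Control replicate 1 (0.90, 0.176) or Control replicate 2 (0.91, 0.207). The distal terms of Krt7 and Krt8 and the collecting duct term of Krt8 passed at the top 5% and 20% of spots and with each section left out. The terms share the proximal spots and are not independent of each other. For the glomerulus the adjusted p ran from 0.233 to 0.935, and no member had an unadjusted p under 0.05. At the top 20% of spots, however, Krt8 (0.42, adjusted p = 9.41e-04) and Krt18 (1.32, 1.84e-04) passed there. Krt18 in the thick limb (0.79, adjusted p = 0.0538) and Vim in the collecting duct (0.37, 0.451) did not pass in the main fit. Both passed at the top 20% of spots (1.73, adjusted p = 1.46e-06, and 1.0, 5.20e-04, edgeR). Without Uox_KO replicate 2 their values were 0.99 and 0.73.

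Krt8 and Krt18, as partners in 1 filament, were set against each other as the number of Krt8 UMIs for each Krt18 UMI. A count ratio between genes also carries how well each transcript is captured, so only its change is described. Whole sections had 3.47 and 3.57 in Uox_KO, against 13.1 and 11.2 in Control, a log2 difference of -1.78. Without urothelial spots it was 4.49 and 4.07, against 13.1 and 11.2 (-1.50). The groups did not overlap in either set, and the two-sided exact permutation p was 0.333, the smallest that 2 against 2 sections can give. Proximal spots had 12.7 and 11.4 in Uox_KO, against 34.2 and 33.9 in Control, and collecting duct spots 1.99 and 1.87, against 4.26 and 3.93. Urothelial spots of Uox_KO had 1.58 and 1.59. The number was lower in Uox_KO in every class, and within each genotype it was highest in proximal spots and lowest in collecting duct spots.

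**Figure D4:**
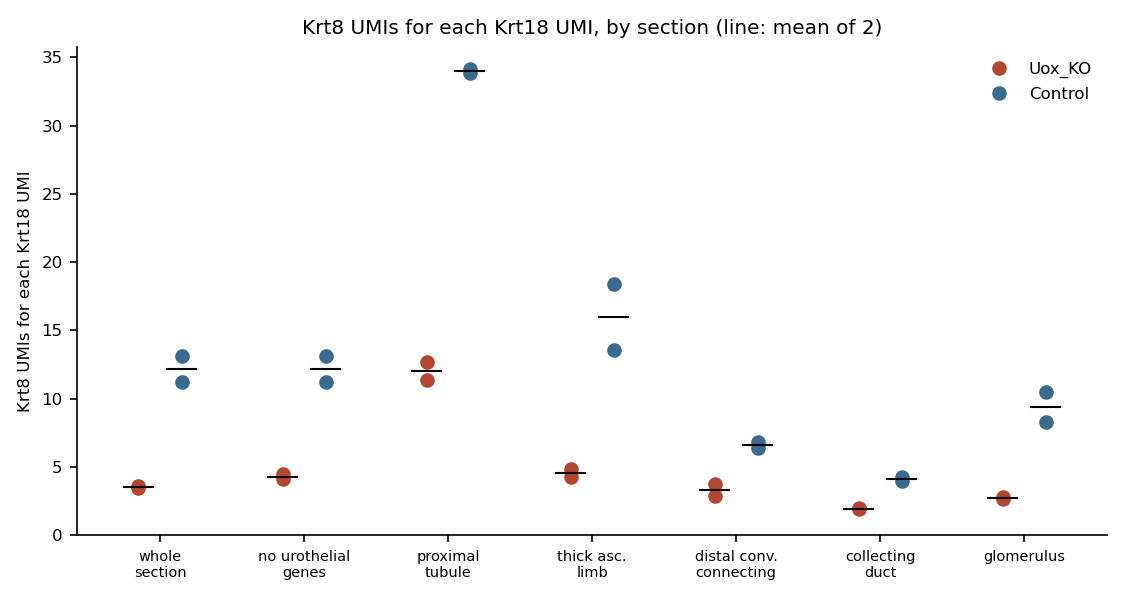
Krt8 UMIs for each Krt18 UMI in whole sections, in spots without urothelial genes and in the 5 classes, with a point for each section (Uox_KO red and left, Control blue and right) and lines at the means. Each red pair lies below its blue pair, for example 12.7 and 11.4 against 34.2 and 33.9 in proximal spots.

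Havcr1 encodes KIM-1, a marker of injured proximal tubule. It stood at 80.0 and 92.8 CPM in whole Uox_KO sections, against 0.306 and 0.303 CPM in Control, so its spots were compared within Uox_KO. Outside the urothelium, 830 and 839 spots had a Havcr1 UMI and 1450 and 1587 had none. The median depth was 25095 and 26708 UMIs in spots with Havcr1, against 13002 and 15779 in spots without it. Krt20, Krt8 and Vim were higher in spots with Havcr1, and Krt7 and Krt19 were lower, where 14.2% of 14817 genes were higher and 15.4% were lower (edgeR with the section as a block). Krt20 had 15.2 and 18.0 CPM in spots with Havcr1, against 6.44 and 4.25 CPM without it, a log2 fold change of 1.65 (SE 0.127, adjusted p = 7.84e-14). Krt8 had 259 and 251 CPM, against 182 and 176 CPM (0.51, adjusted p = 1.88e-09), and Vim 135 and 113 CPM, against 112 and 104 CPM (0.20, adjusted p = 0.00950). Krt7 had 62.4 and 87.4 CPM, against 97.6 and 132 CPM (-0.62, adjusted p = 2.26e-11), and Krt19 12.2 and 13.3 CPM, against 14.6 and 15.6 CPM (-0.24, adjusted p = 0.0421). Without the section as a block, Vim, Krt7 and Krt19 did not pass (adjusted p = 0.284, 0.133 and 0.187). Krt18 had 48.0 and 47.9 CPM, against 49.0 and 54.0 CPM, and its interval ran from -0.22 to 0.02 (adjusted p = 0.197). Krt23 did not pass either (-0.54, adjusted p = 0.274). With spots thinned to 5000 UMIs the same 3 members were higher, beside 5.51% of genes, and the same 2 were lower, beside 6.96%. In spots with no Havcr1 UMI at all, the 6 members were still higher in Uox_KO than in Control, beside 31.4% of genes higher and 30.1% lower, with Krt20 at 5.83 and 3.85 CPM, against 0.0471 and 0.0203 CPM.

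Levels also went with the number of Havcr1 UMIs in a spot. In order of 0, 1 to 2, 3 to 9, and 10 or more Havcr1 UMIs, Krt20 ran through 6.50, 10.3, 16.6 and 33.9 unscaled CPM in Uox_KO replicate 1, and 4.05, 6.48, 17.6 and 50.8 in replicate 2. Krt8 ran through 184, 216, 325 and 345, and 167, 212, 287 and 322. Krt7 went the other way, with 98.6, 72.1, 65.3 and 30.9 in replicate 1, and 126, 112, 79.1 and 37.5 in replicate 2. Krt20 and Krt8 climbed at each step in both sections, and Krt7 declined at each step. Median depth was 13002 and 15779 UMIs in spots with no Havcr1 UMI, against 35888 and 35015 in spots with 10 or more. The part of depth and of the mix of segments in these steps was not tested. Krt18 had 49.5, 47.1, 59.3 and 38.3, and 51.4, 52.8, 51.4 and 32.4, with its lowest level in the spots with the most Havcr1. The Krt8 UMIs for each Krt18 UMI were 3.72 and 3.26 in spots with no Havcr1 UMI, and 9.01 and 9.94 in spots with 10 or more.

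**Figure D5:**
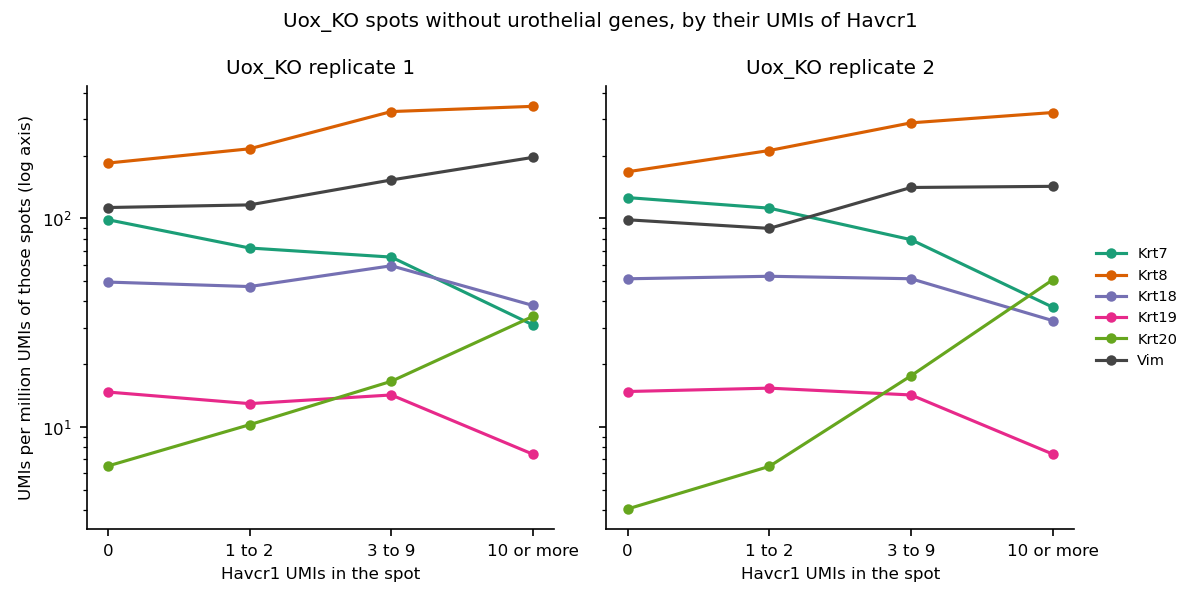
Unscaled CPM (log axis) of 6 genes in Uox_KO spots without urothelial genes, grouped by their Havcr1 UMIs, for replicate 1 (left panel) and replicate 2 (right panel). The Krt20 line climbs from spots with no Havcr1 UMI (6.50 and 4.05 CPM) to spots with 10 or more (33.9 and 50.8), and the Krt7 line declines (98.6 and 126, then 30.9 and 37.5).

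Over single spots without urothelial genes, the keratins kept company with different genes. The values are Pearson correlations of log2 levels over 2280 and 2426 Uox_KO spots, against 2524 and 3352 Control spots, which share library, depth and neighbouring tissue. They are descriptions of sparse counts. Krt8 and Krt18 had r of 0.31 and 0.39 in Uox_KO, against 0.03 and 0.05 in Control. Krt7 and Krt18 had 0.40 and 0.47 in Uox_KO, against 0.32 and 0.32 in Control. Krt18 and Krt19 had 0.22 and 0.33, against 0.02 and 0.04. Krt20 went with Krt8 (0.21 and 0.19 in Uox_KO) and with Havcr1 (0.17 and 0.39), and not with Krt7 (-0.01 and -0.07). Krt8 had 0.32 and 0.39 with inner medulla markers in Uox_KO, against 0.02 and 0.01 in Control. With macrophage markers Krt8 had 0.25 and 0.28, against 0.01 and 0.00. Vim followed the stroma markers, with 0.56 and 0.61 in Uox_KO, against 0.47 and 0.43 in Control. It followed the macrophage markers with 0.50 and 0.54, against 0.16 and 0.17. With smooth muscle and pericyte markers Vim had 0.52 and 0.58 in Uox_KO, against 0.61 and 0.61 in Control. With glomerular markers it had 0.28 and 0.39, against 0.57 and 0.53, and with endothelial markers 0.29 and 0.33, against 0.47 and 0.46. With inner medulla markers Vim had 0.43 and 0.42 in Uox_KO, against 0.21 and 0.19 in Control.

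Among the 10676 genes compared, the one most like each member over the Uox_KO spots, ranked by the lower r of the 2 sections, was as follows. For Krt7 it was Mal (0.54 and 0.64), a membrane protein of apical sorting. For Krt8 it was Ly6e (0.40 and 0.42), with Spp1, which encodes osteopontin, also among the 5 most alike. For Krt18 it was Clu, which encodes the secreted chaperone clusterin (0.46 and 0.53), ahead of Cd24a and Krt7. For Krt20 it was Vcam1 (0.32 and 0.28), an adhesion molecule, ahead of Hspb1, a small heat shock protein. For Vim it was Tmsb4x, which encodes the actin-binding thymosin beta-4 (0.58 and 0.59), ahead of Sparc, a matrix protein. Krt19 was most like Krt7 itself (0.26 and 0.32). Krt23 had its highest r of 0.20 and 0.24 with Fxyd4, a collecting duct gene, on very few UMIs.

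Of the 47 other keratin genes, 10 had enough UMIs to be tested in whole sections, of which 6 were higher and 2 lower in Uox_KO, beside 34.6% of all genes higher and 32.5% lower. Krt5, a keratin of basal cells, had 14.1 and 8.02 CPM in Uox_KO and no UMI in Control. Krt15, another basal keratin, had 6.64 and 7.06 CPM and likewise no UMI in Control. A count of 0 there allows up to 0.0321 and 0.0278 CPM. Both genes thus passed the filter on low counts through Uox_KO. The count of higher keratins therefore describes the genes that passed and not the family. Krt10, the type I keratin of differentiated epidermis, went the other way, with 6.67 and 7.39 CPM in Uox_KO, against 19.5 and 22.2 CPM in Control (log2 fold change -1.57, SE 0.0950). Urothelial spots held 89.6% and 89.7% of the Krt5 UMIs of Uox_KO and 86.7% and 84.1% of those of Krt15, more than the 65.4% and 51.7% of Krt19. Krt79 differed, since fat-bearing spots outside the urothelium held 53.1% and 76.6% of its UMIs, which numbered only 49 and 64. Those spots also held 21.9% and 39.9% of the Krt8 UMIs and 24.1% and 48.1% of the Vim UMIs.

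Other genes of the filament system were described in whole sections, where 34.6% of all genes were higher and 32.5% lower. Among 15 other intermediate filament genes, of which 12 were tested, 9 were higher and 1 lower (median log2 fold change 1.5). Nes, which encodes nestin, a partner of vimentin, had 27.3 and 29.5 CPM in Uox_KO, against 4.89 and 5.53 CPM in Control (2.44), and Lmna, which encodes lamins A and C of the nuclear envelope, had 117 and 113 CPM, against 57.3 and 57.4 CPM (1.01). Of 19 genes of desmosomes and other keratin anchors, 18 were tested, 12 were higher and 2 were lower (median 0.47). Plec, which encodes plectin, a crosslinker of filaments, had 70.3 and 67.3 CPM, against 26.3 and 27.3 CPM (1.36), and Itgb4, a hemidesmosome integrin, had 10.6 and 10.4 CPM, against 1.42 and 1.91 CPM (2.64). Of 12 keratin partners and chaperones, 4 were higher and 3 lower (median 0.04). Hspb1 had 112 and 101 CPM, against 11 and 11 CPM (3.28), and Sfn, which encodes a 14-3-3 protein, had 45.9 and 48.5 CPM, against 3.82 and 5.43 CPM (3.34).

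Of 25 genes of dedifferentiation and epithelial plasticity, 21 were higher and 2 lower in Uox_KO (median log2 fold change 1.23), beside 34.6% of all genes higher, 32.5% lower and a median of 0.00. Vcam1 had 99.5 and 83.2 CPM, against 4.94 and 4.85 CPM (4.22), and Sox9, a transcription factor of repairing tubule cells, had 20.7 and 23.2 CPM, against 0.965 and 0.738 CPM (4.70). Of 18 actin and tubulin genes, 16 were higher and 1 was lower against that same background (median 1.28), and the one with the smallest p was Tuba1a with 112 and 99.1 CPM in Uox_KO, against 22.3 and 23.3 CPM in Control (2.21).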

How the data were processed

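RNA of fresh frozen kidney sections was captured on 10x Genomics Visium slides. Each deposited table held whole, unnormalized UMI counts for 32285 genes. Per the submitters' processing notes, the authors used Space Ranger 1.3.1 and mm10. Counts were summed per section and tested with edgeR 4.0.16 (R 4.3.3): filterByExpr, TMM scaling, the quasi-likelihood F test and Benjamini-Hochberg adjustment over all genes tested, with a threshold of 0.05. A section of 1 mouse was the replicate. Spots with a UMI of Upk1b or Upk3a were called urothelial. Classes were the top 10% of the other spots by marker share, and comparisons within Uox_KO had the section as a block. Depth is given by section, a count of 0 is bounded by 3 counts, and intervals on counts cover counting error only. Sequences came from RefSeq tables. The 7 genes, the lists and the tests were chosen with earlier results of these data known. Genes named from lists were the up to 4 tested genes with the smallest p in whole sections, and like genes the 5 with the highest correlation in both Uox_KO sections. Krt79, Havcr1 and marker genes were named as descriptions of spots. Alternatives were DESeq2 1.42.0, RLE size factors, total UMIs without TMM, no filter, a replicate block, each section left out, other spot rules and thinned counts. The sets without Havcr1 spots, without Slc14a2 spots, without all hilum and capsule genes and with the fewest non-epithelial markers were chosen after seeing the data. Spots hold several cells, and no doublet caller was run.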

Additional observations from a re-analysis of the deposited data

Results flagged for a closer look

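These 7 results were singled out because the difference between Uox_KO and Control itself differed between a class of spots and the proximal tubule spots, in 1 edgeR fit with the mouse as a block and Benjamini-Hochberg adjustment over 13860 genes. In thick ascending limb spots the difference was larger than in proximal spots by 0.57 for Krt7, by 0.54 for Krt8 and by 1.37 for Vim (log2). In distal convoluted and connecting tubule spots it was larger by 1.0 for Krt7 and by 0.79 for Krt8. In collecting duct spots it was larger by 1.27 for Krt8 and by 0.85 for Krt18. Of these, 4 did not pass under some alternatives. The thick limb term of Krt8 did not pass without Control replicate 1 or without Control replicate 2 (adjusted p = 0.0576 and 0.0789), and that of Vim did not pass at the top 5% of spots (0.63, adjusted p = 0.195). The thick limb term of Krt7 did not pass at the top 5% (0.24) or without Uox_KO replicate 1 (0.34), Control replicate 1 (0.61) or Control replicate 2 (0.55). The collecting duct term of Krt18 did not pass at the top 5% (0.43) or top 20% (0.23), nor without Uox_KO replicate 1 (0.75), Control replicate 1 (0.90) or Control replicate 2 (0.91). The other 3 passed at the top 5% and 20% of spots and with each section left out. Median depth was lower in these classes of Uox_KO than of Control (in collecting duct spots 13997 and 16976 UMIs per spot in Uox_KO, against 30766 and 28095 in Control), and stroma markers were higher in Uox_KO in each class. Their part in these terms was not tested. With 2 sections per group, single sections standing apart were not tested.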

How the results depend on the processing

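Of the counts that answer a comparison, 273 values under the alternatives were within 1.5 times the reported count, 13 were lower and 4 higher by more. Members called lower numbered 0 in most comparisons, and 0 against 0 was taken as within. A fall from 6 members to 4 would be taken so too, so the 273 say little about how firm a result is. Without TMM the whole sections had 8156 genes higher and 2926 lower, and spots without urothelial genes 7840 higher and 2834 lower, since all genes moved by 0.26 (log2). The same 6 members were called higher in both. In the spots with the fewest non-epithelial markers 3415 genes were higher and 3081 lower, on fewer UMIs. With no filter on low counts 1 member was lower in thick limb spots. With the wider urothelial list 4 members were higher in urothelial spots. Without a replicate block 0 members passed as lower in spots with Havcr1, against 2 with it. The terms for the thick limb and the collecting duct each kept 1 member at the top 5% of spots, and that for the glomerulus had 2 at the top 20%. The cause was not tested. With 1 section left out, members called higher numbered 6 to 6 in whole sections, 5 to 6 without urothelial spots, 1 to 4 for the thick limb term and 1 to 4 for the collecting duct term, and members lower in thick limb spots numbered 0 to 1. The log2 values that changed sign were these. Krt23 outside the urothelium was 0.0086 without TMM. With 1 section left out, Krt23 ranged from -0.014 (without Control replicate 1) to 0.15 in whole sections and from -0.79 (without Uox_KO replicate 2) to 1.06 in collecting duct spots. Krt7 was lowest without Uox_KO replicate 2, ranging from -0.077 to 0.55 in proximal spots and from -0.034 to 0.63 in glomerular spots. Among the class terms, Vim in distal spots was 0.44 at the top 20% of spots and ranged from -0.64 to 0.064 with 1 section left out. Vim in the collecting duct was -0.23 at the top 5% and 1.0 at the top 20%, where it passed the test. In the glomerulus, Krt7 was -0.34 at the top 5% and ranged from -0.20 to 0.34 with 1 section left out, and Vim was -0.15 and ranged from -0.016 to 0.26. Deviations of sections with the same replicate number correlated at 0.09 over 16369 genes with 2 pairs, so the numbers were not taken to pair the mice. With the replicate block, whole sections had 5739 genes higher and 5377 lower, and the same 6 members. The 2 sections per genotype and the shallower Uox_KO spots limit what could be tested for Krt19, Krt20 and Krt23 in single classes.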
